A study of Mus musculus with 7 samples.

Results

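Extracellular matrix and integrin genes were followed in mouse neural stem cells in which KAP1 had been reduced. The set holds 41 genes, chosen by symbol from 5 kinds of protein, namely basement membrane components, brain proteoglycans with their partners, matricellular and other secreted matrix proteins, integrins with the hyaluronan receptor CD44, and matrix proteases with their inhibitors. Of these 41 genes, 19 stand among the 3389 genes of the authors' deposited table. The cells came from mouse subventricular zone, the layer along the lateral ventricle where neural stem cells persist after birth, and were grown with EGF and FGF-2 before nucleofection. In the labels 4 samples are shKAP1 cells, which received a short hairpin RNA against KAP1, and 3 are control cells. The sources used here do not give strain, age, sex, the number of animals or cultures, or whether the controls carried a control hairpin, so the p-values measure the spread between these samples only. KAP1 is encoded by Trim28, and in the authors' deposited table Trim28 stood at 44.5% of its control level. The values come from a table of that 1 comparison with no column per sample, so for each gene the mean normalized count over samples, the log2 fold change (shKAP1 minus control) and its standard error (SE) are given in place of values per library. Signs are read from Trim28, since the table does not name its numerator.

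The extracellular matrix is the network of secreted proteins and sugar chains around cells. Basement membranes are sheets of laminin and type IV collagen joined by nidogens and perlecan, whereas the matrix between cells of the brain is rich in hyaluronan, the chondroitin sulfate proteoglycans called lecticans, and tenascins. Integrins are receptors made of an alpha and a beta subunit that tie these proteins to the actin cytoskeleton, and matricellular proteins modulate adhesion rather than build fibres. In the subventricular zone, laminin-rich structures and tenascin-C are known components of the stem cell niche.

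Among the 41 genes, 13 were higher and 6 lower in shKAP1 at an adjusted p under 0.05 (DESeq2, the authors' deposited table), and 22 were not listed. Over all genes that received an adjusted p, 26.3% were listed, 12.6% as higher and 13.7% as lower, against 46.3%, 31.7% and 14.6% of the 41 genes. The set was put together with earlier results of these data known, so the larger share is a description of the set and not a test of it. Shares of the set and of every list below divide by all genes named, with or without an adjusted p. They may therefore run low beside shares of all genes tested. The median log2 fold change of the 19 listed genes was 0.28, against -0.13 over all listed genes, and the median size of the change was 0.40 against 0.29 on the log2 scale. The largest changes were in the class of matricellular and other secreted matrix proteins. The listed integrin genes moved in both directions by 1.16-fold to 1.24-fold. Of the 12 basement membrane genes 16.7% were listed, against 26.3% of all genes tested. A gene is absent from the table if its adjusted p was too large or if it had none, so nothing is said here of its change. Under stricter limits, 11 of the 41 genes were higher and 4 lower at an adjusted p under 0.01, against 8.18% and 9.51% of all genes tested. At a Bonferroni limit 8 were higher and 1 lower, against 3.05% and 4.15%, and 7 were higher and 1 lower with a 95% interval wholly beyond 1.2-fold, against 2.41% and 2.48%. With a mean normalized count of at least 100, 12 were higher and 5 lower, against 12.3% and 13.4% of all genes tested. These shares divide by genes tested at any count, because the counts of unlisted genes are unknown. Of the 41 genes, 4 changed by 2-fold or more, against 0.635% of all genes tested. In bulk RNA, fewer cells of a type and less RNA per cell cannot be told apart.

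**Figure D1:**
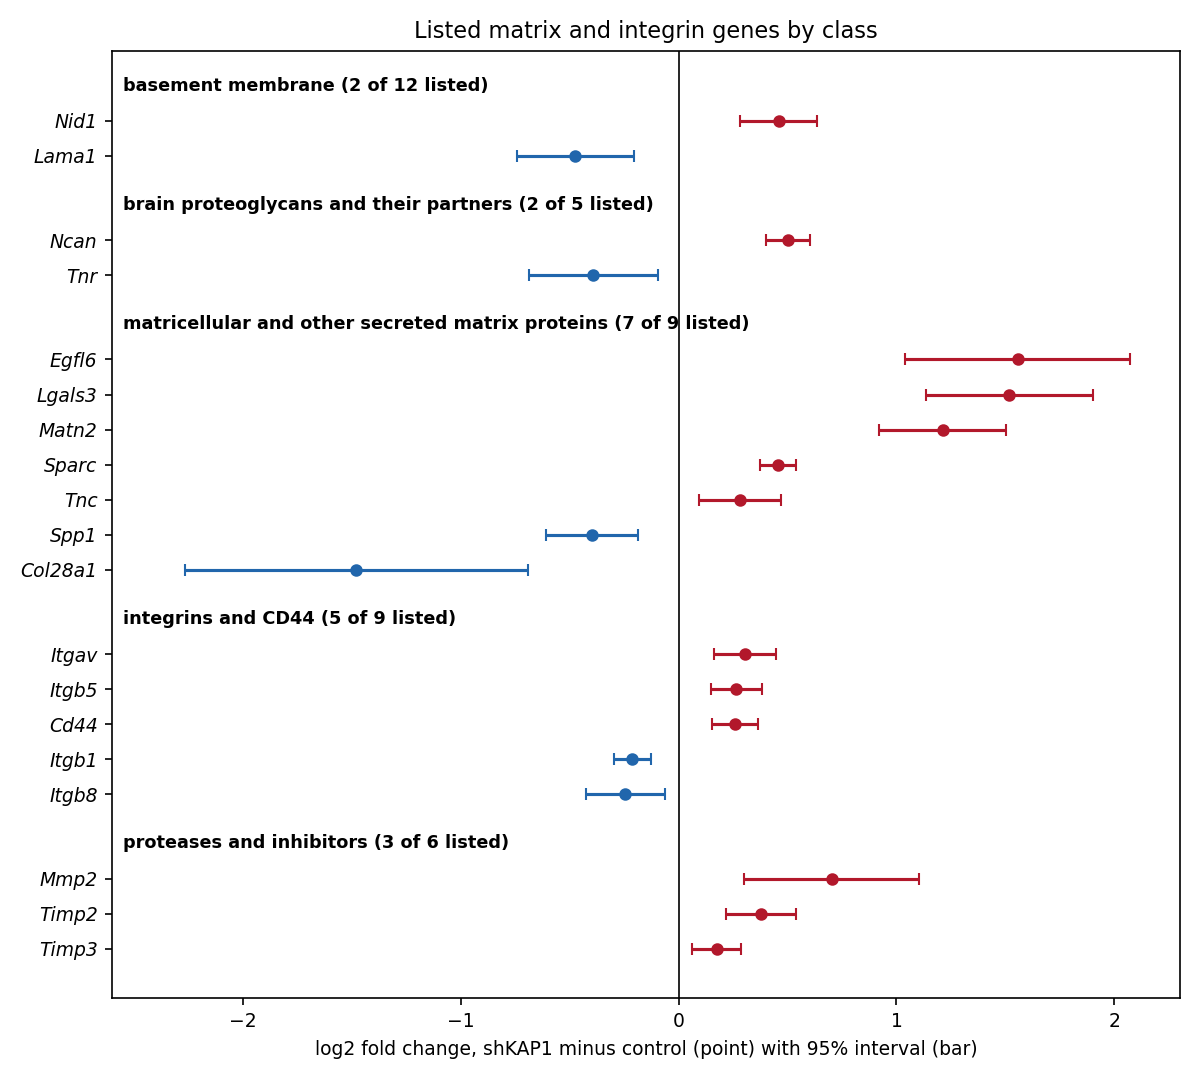
Log2 fold change (shKAP1 minus control, horizontal axis) of the 19 listed genes in the authors' deposited table, grouped by class, with points for the estimate and bars for the 95% interval, red for higher and blue for lower. Egfl6, Lgals3 and Matn2 lie farthest to the right and Col28a1 farthest to the left, the latter with the widest interval.

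Matricellular and other secreted matrix proteins had 7 of 9 genes listed, 5 higher and 2 lower. These are 55.6% and 22.2%, against 12.6% and 13.7% of all genes tested. Egfl6, a secreted protein with EGF repeats, had a mean normalized count of 92.2 and a log2 fold change of 1.56 (adjusted p = 1.07e-07 by DESeq2, SE 0.26) in the authors' deposited table, which is 2.94-fold higher with a 95% interval of 2.06 to 4.21. Lgals3 encodes galectin-3, a lectin that binds galactose-bearing chains on matrix proteins and is known in mouse for a role in the migration of neuroblasts out of the subventricular zone. In the authors' deposited table Lgals3 had a mean normalized count of 225.5 and a log2 fold change of 1.52 (adjusted p = 6.27e-13 by DESeq2, SE 0.19), or 2.86-fold higher with an interval of 2.20 to 3.73. Matn2, a matrix adaptor with von Willebrand factor A domains, had a mean normalized count of 1536 and was 2.32-fold higher (log2 1.21, adjusted p = 3.77e-14 by DESeq2, SE 0.15, interval 1.89 to 2.83) in the authors' deposited table. The intervals of the 3 genes overlap, so their order by size is not resolved. In GRCm38, Egfl6 (ENSMUSG00000000402.2) lies on chromosome X at 166523007 to 166585720 on the minus strand, Lgals3 (ENSMUSG00000050335.17) on chromosome 14 at 47367751 to 47386160 on the plus strand and Matn2 (ENSMUSG00000022324.15) on chromosome 15 at 34306677 to 34436273 on the plus strand. They are 3 of the 45 genes higher by at least 2-fold in the whole table, which are 0.349% of the genes tested.

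Sparc and Tnc were more abundant per kilobase of transcript, at 7456 and 5210 mean normalized counts against 34.1 for Egfl6, 158.9 for Lgals3 and 429.4 for Matn2, and rose less. Sparc encodes a collagen-binding, counter-adhesive glycoprotein, and in the authors' deposited table it had a mean normalized count of 17148 and a log2 fold change of 0.46 (adjusted p = 2.73e-24 by DESeq2, SE 0.04). Sparc was thus 1.37-fold higher, with an interval of 1.29 to 1.45 and the smallest SE of the 19 genes, and it stood at rank 16 of all listed genes by adjusted p. Tnc encodes tenascin-C, a multimeric glycoprotein that modulates adhesion to fibronectin, and was 1.22-fold higher at a mean normalized count of 37024 (log2 0.28, adjusted p = 0.0165 by DESeq2, SE 0.10) in the authors' deposited table. The adjusted p of Tnc is closer to the limit of 0.05 and its interval reaches down to 1.07-fold. The adhesion proteins fibronectin, from Fn1, and thrombospondin-1, from Thbs1, were not listed.

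Col28a1 and Spp1 were the lower members. Col28a1 encodes the collagen XXVIII chain, known in mouse chiefly from peripheral nerve, and fell to 35.9% of control (log2 -1.48, adjusted p = 0.00185 by DESeq2, SE 0.40) at a mean normalized count of 62.8 in the authors' deposited table. That count is the lowest of the 19 genes and its SE the largest, so the fall lies anywhere between 1.62-fold and 4.81-fold by its 95% interval. Col28a1 (ENSMUSG00000068794.7) lies on chromosome 6 at 7997808 to 8192617 on the minus strand and is 1 of 37 genes lower by at least 2-fold, or 0.287% of the genes tested. Spp1 encodes osteopontin, a ligand of integrins that contain alpha-v and of CD44, and stood at 76.0% of control (log2 -0.40, adjusted p = 0.00192 by DESeq2, SE 0.11) with a mean normalized count of 643.0 in the authors' deposited table. In the annotation an exon of Spp1 overlaps an exon of the gene model Gm42793 on the same strand, so its reads may be split. The osteopontin transcript was thus lower, while the transcripts of its receptor genes Itgav and Cd44, given with the integrins, were higher.

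Promoters are shown for Egfl6, Lgals3 and Col28a1 because they changed at least 2-fold. Matn2 also changed at least 2-fold but had no promoter entry. Sparc and Itgb1 are shown because they had the smallest adjusted p in each direction, and Itgb5 as the beta subunit that moved against Itgb1. Each sequence runs from 250 bases before to 50 bases after a RefSeq transcript start (build GRCm38.p6), 5′ to 3′ on the strand of the gene. Capitals mark matches to any of 5 motifs on either strand. The GC box, a binding motif of factors of the SP family, was searched as GGGCGG. The TATA box, which positions the start of transcription, was searched as TATAAA. The AP-1 site, bound by factors of the Fos and Jun families, was searched as TGANTCA. The TEAD site, read by the partners of YAP, was searched as GGAATG. The CArG box of serum response factor was searched under its usual definition. Matches on the other strand appear as the reverse complement, and no matches to different motifs overlap in the windows shown.
Egfl6, chrX:166585667-166585966, strand minus: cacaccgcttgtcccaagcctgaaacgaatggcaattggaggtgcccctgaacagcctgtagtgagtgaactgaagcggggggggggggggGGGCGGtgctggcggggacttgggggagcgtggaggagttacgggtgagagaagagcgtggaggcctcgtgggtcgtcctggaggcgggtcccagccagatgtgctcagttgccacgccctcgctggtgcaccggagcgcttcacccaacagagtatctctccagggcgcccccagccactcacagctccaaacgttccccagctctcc
Lgals3, chr14:47373610-47373909, strand plus: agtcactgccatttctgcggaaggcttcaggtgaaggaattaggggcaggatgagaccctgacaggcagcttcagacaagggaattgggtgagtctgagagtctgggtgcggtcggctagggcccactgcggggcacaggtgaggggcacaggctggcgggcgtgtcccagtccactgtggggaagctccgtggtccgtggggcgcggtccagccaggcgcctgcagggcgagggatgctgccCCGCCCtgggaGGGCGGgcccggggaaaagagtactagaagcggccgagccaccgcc
Sparc, chr11:55420031-55420330, strand minus: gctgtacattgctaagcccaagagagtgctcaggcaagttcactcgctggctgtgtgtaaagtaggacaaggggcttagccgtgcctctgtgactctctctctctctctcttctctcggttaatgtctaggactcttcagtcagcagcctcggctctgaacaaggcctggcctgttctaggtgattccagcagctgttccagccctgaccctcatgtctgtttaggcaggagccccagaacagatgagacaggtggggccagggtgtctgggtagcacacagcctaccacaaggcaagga
Itgb5, chr16:33829415-33829714, strand plus: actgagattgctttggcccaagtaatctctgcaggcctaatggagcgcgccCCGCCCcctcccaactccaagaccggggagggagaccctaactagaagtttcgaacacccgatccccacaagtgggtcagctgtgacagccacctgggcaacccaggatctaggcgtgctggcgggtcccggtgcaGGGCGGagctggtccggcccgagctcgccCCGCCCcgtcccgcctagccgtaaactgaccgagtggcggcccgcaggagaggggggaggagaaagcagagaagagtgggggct
Col28a1, chr6:8192568-8192867, strand minus: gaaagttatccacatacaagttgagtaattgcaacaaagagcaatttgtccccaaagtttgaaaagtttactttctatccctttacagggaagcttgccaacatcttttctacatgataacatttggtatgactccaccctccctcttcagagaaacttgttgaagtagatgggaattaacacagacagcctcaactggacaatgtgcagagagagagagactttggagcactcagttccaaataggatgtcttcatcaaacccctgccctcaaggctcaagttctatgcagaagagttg
Itgb1, chr8:128685404-128685703, strand plus: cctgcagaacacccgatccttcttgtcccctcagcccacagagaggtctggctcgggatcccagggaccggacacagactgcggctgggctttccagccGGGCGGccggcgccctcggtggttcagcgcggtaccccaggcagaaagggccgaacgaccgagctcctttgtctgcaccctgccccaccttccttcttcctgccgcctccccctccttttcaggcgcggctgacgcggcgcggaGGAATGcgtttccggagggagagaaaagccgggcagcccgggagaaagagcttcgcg
Lgals3 holds 2 GC boxes, Itgb5 holds 3, and Egfl6 and Itgb1 hold 1 each, whereas the windows of Sparc and Col28a1 hold none of the searched motifs. Itgb1 also holds a TEAD site. The Col28a1 window has no CG dinucleotide and 41.7% G and C, against 27 CG dinucleotides and 67.3% in that of Itgb1. Capitals mark letters only and show no binding.

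Of the 19 listed genes, 16 had a promoter entry, and Lama1, Matn2 and Mmp2 had none. The first entry was used where a gene has several. A GC box was present in 10 of the 11 higher genes and in 1 of the 5 lower genes. The share among all 32851 promoters of the RefSeq table is 35.7%, but among listed genes it is 68.6% for those higher and 71.0% for those lower in shKAP1, so over the whole table the box was about as frequent in both directions. The median promoter of the higher members had 65.3% G and C with 18 CG dinucleotides, and that of the lower members 48.0% with 3. Over all listed genes the medians were 62.3% with 21 in those higher and 62.7% with 24 in those lower. The whole table thus showed no such split, and the medians of all promoters were 52.7% and 7. A TATA box was present in 2 higher members, Ncan and Tnc, and in 1 lower member, Spp1, against 13.6% of all promoters. A TEAD site was present in 1 higher member, Nid1, and in 1 lower member, Itgb1, against 14.7% of all promoters. No AP-1 site or CArG box was present in the 16 windows, against 7.81% and 1.63% of all promoters.

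Integrins and CD44 had 3 genes higher and 2 lower of 9, or 33.3% and 22.2%, against 12.6% and 13.7% of all genes tested. Itgav encodes the alpha-v subunit, which pairs with several beta subunits in receptors for vitronectin, fibronectin and osteopontin. In the authors' deposited table Itgav had a mean normalized count of 26827 and was 1.24-fold higher (log2 0.31, adjusted p = 0.000272 by DESeq2, SE 0.07). Itgb5, whose product pairs only with alpha-v in the vitronectin receptor alpha-v beta-5, stood at 120.2% of control at a mean normalized count of 8515 (log2 0.27, adjusted p = 0.000137 by DESeq2, SE 0.06) in the authors' deposited table. The transcripts of both subunits of that receptor were therefore higher, by amounts whose intervals overlap (0.16 to 0.45 and 0.15 to 0.38 on the log2 scale). Cd44, the hyaluronan receptor, stood at 119.6% of control at a mean normalized count of 8356 (log2 0.26, adjusted p = 2.23e-05 by DESeq2, SE 0.05) in the authors' deposited table.

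Itgb1 encodes the beta-1 subunit, the partner of most laminin- and fibronectin-binding alpha subunits. Itgb1 stood at 86.3% of control at a mean normalized count of 50946 (log2 -0.21, adjusted p = 1.47e-05 by DESeq2, SE 0.04) in the authors' deposited table. Itgb8 pairs with alpha-v in a receptor known for activating latent TGF-beta, and stood at 84.4% of control at a mean normalized count of 24211 (log2 -0.24, adjusted p = 0.0329 by DESeq2, SE 0.09) in the authors' deposited table. The listed beta subunits split in direction, with log2 intervals of -0.30 to -0.13 for Itgb1, -0.42 to -0.06 for Itgb8 and 0.15 to 0.38 for Itgb5. The interval of every listed member excludes 0, so opposite signs alone keep these intervals apart. Itga3, Itga5, Itga6 and Itga7, whose products join beta-1 in receptors for laminins or fibronectin, were not listed. Per kilobase of the longest coding transcript, the mean normalized counts were 13354 for Itgb1, 3803 for Itgav, 2881 for Itgb8 and 2594 for Itgb5, so by this length the most abundant subunit transcript was among the lower ones.

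Brain proteoglycans and their partners had 1 gene higher and 1 lower of 5. Each is 20.0% and rests on 1 gene, against 12.6% and 13.7% of all genes tested. Ncan encodes neurocan, a lectican that binds hyaluronan and tenascins, and was 1.42-fold higher (95% interval 1.32 to 1.52) with a log2 fold change of 0.50 (adjusted p = 2.18e-19 by DESeq2, SE 0.05) in the authors' deposited table. Its mean normalized count was 159108, the highest of the 19 genes, or 22114 per kilobase of its longest coding transcript. Tnr encodes tenascin-R, a lectican-binding tenascin made mainly by oligodendrocytes and some neurons, and stood at 76.3% of control at a mean normalized count of 1718 (log2 -0.39, adjusted p = 0.0377 by DESeq2, SE 0.15) in the authors' deposited table. The adjusted p of Tnr is the largest of the 19 genes. The listed tenascin genes had opposite signs, Tnc up and Tnr down (intervals 0.09 to 0.47 and -0.68 to -0.10 on the log2 scale). Intervals of listed members exclude 0, so those of opposite sign cannot overlap. Neither tenascin gene remained at an adjusted p under 0.01. The lecticans brevican, from Bcan, and versican, from Vcan, and the link protein gene Hapln1 were not listed.

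Basement membrane genes had 1 gene higher, 1 lower and 10 not listed of 12, or 16.7% listed against 26.3% of all genes tested. Nid1 encodes nidogen-1, which bridges laminin and type IV collagen, and was 1.38-fold higher at a mean normalized count of 686.8 (log2 0.46, adjusted p = 6.17e-06 by DESeq2, SE 0.09) in the authors' deposited table. Lama1 encodes the alpha-1 chain of laminin and stood at 72.0% of control at a mean normalized count of 526.6 (log2 -0.47, adjusted p = 0.00362 by DESeq2, SE 0.14) in the authors' deposited table. Laminin is secreted as a trimer of an alpha, a beta and a gamma chain, and the partner chains of Lama1, from Lamb1 and Lamc1, were not listed. Neither were Lama2, Lama4, Lama5 and Lamb2, the type IV collagen genes Col4a1 and Col4a2, Nid2, or the perlecan gene Hspg2.

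Proteases and inhibitors had 3 of 6 genes listed, all higher. Of all genes tested, 26.3% were listed, 12.6% as higher and 13.7% as lower. The class count rests on 3 genes, and the 42 other proteases and inhibitors described below gave 3 higher and 6 lower. Mmp2 encodes gelatinase A, which cleaves denatured collagen and type IV collagen, and was 1.63-fold higher (95% interval 1.23 to 2.15) at a mean normalized count of 185.6 (log2 0.70, adjusted p = 0.00394 by DESeq2, SE 0.20) in the authors' deposited table. Timp2, whose product inhibits metalloproteinases and also bridges the MMP2 precursor to its activator MMP14, was 1.30-fold higher at a mean normalized count of 7779 (log2 0.38, adjusted p = 5.30e-05 by DESeq2, SE 0.08) in the authors' deposited table. Timp3, an inhibitor that stays bound to the matrix, was 1.13-fold higher at a mean normalized count of 8870 (log2 0.17, adjusted p = 0.0135 by DESeq2, SE 0.06) in the authors' deposited table, the smallest change of the 19 genes. The transcripts of the protease and of 2 inhibitors were thus all higher. Mmp14, Mmp15 and Timp1 were not listed.

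The largest changes were in scarce transcripts, but the sizes of change of abundant and scarce genes overlapped. Per kilobase of the longest coding transcript, 10 genes had a mean normalized count of 1488 to 22114, in descending order Ncan, Itgb1, Sparc, Tnc, Itgav, Itgb8, Itgb5, Timp2, Timp3 and Cd44, and these differed between groups by 1.13-fold to 1.42-fold. The other 9 lay at 14.8 to 429.4 per kilobase, in descending order Matn2, Spp1, Lgals3, Tnr, Nid1, Mmp2, Lama1, Egfl6 and Col28a1, and differed by 1.31-fold to 2.94-fold, with a median of 1.63-fold against 1.21-fold. Tnr, Spp1, Nid1 and Lama1, all scarce, changed by less than the abundant Ncan. The SE was 0.04 to 0.10 on the log2 scale in the abundant genes and 0.09 to 0.40 in the scarce ones. These ranges overlap, and a larger SE means that a larger change is needed to pass the limit. With the median length in place of the longest, the same 10 genes lie above 1000 per kilobase, but Itgav moves from place 5 to place 1 because short coding transcripts are annotated for it.

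**Figure D2:**
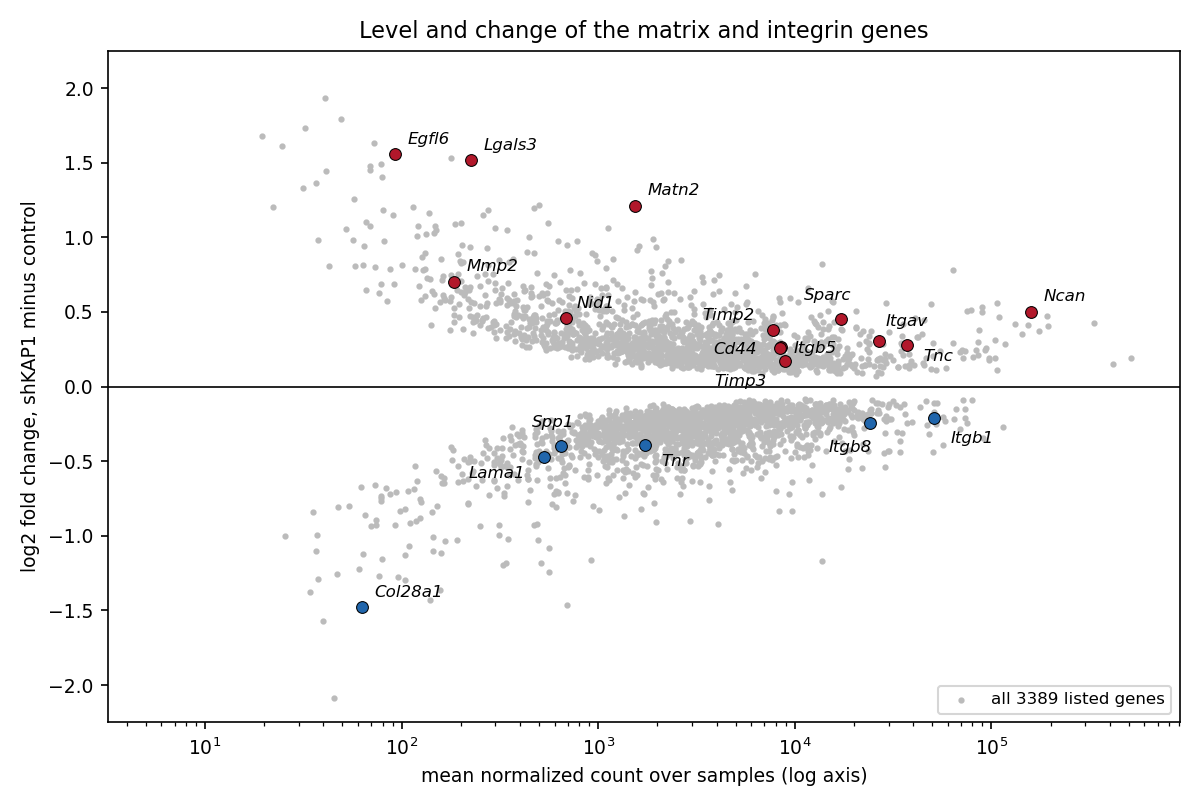
Log2 fold change (shKAP1 minus control, vertical axis) against the mean normalized count over samples (horizontal log axis) for listed genes in the authors' deposited table, grey for all 3389 (5 lie beyond the plotted range), red and blue for the higher and lower matrix and integrin genes. Ncan lies at the abundant end with a small change and Egfl6, Lgals3 and Col28a1 at the scarce end with large changes, and the empty band around 0 is there because genes over the limit are not listed.

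Outside the 41 genes, 273 further matrix and adhesion genes in 9 lists gave 42 higher and 23 lower, or 15.4% and 8.42%, against 12.6% and 13.7% of all genes tested. Their share listed in either direction was 23.8%, beside 26.3% of all genes tested. The former divides by all 273 genes, with or without an adjusted p, so it may run low. Of 28 integrin adaptors and adhesion kinases, 8 were higher, or 28.6% against 12.6%, and 0 were lower. In the authors' deposited table the log2 fold changes were 0.86 for Tgfb1i1, a focal adhesion protein also called Hic-5, 0.32 for the actin-binding Parvb, 0.19 for the kinase-like scaffold Ilk and 0.35 for the tetraspanin gene Cd151. Of 19 integrin subunit genes outside the set, 0 were listed in the authors' deposited table (DESeq2), and their unadjusted p-values are unknown.

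Elastic fibre and other matricellular genes gave 8 higher and 2 lower of 41, or 24.4% listed, near the 26.3% of all genes tested. Eln, which encodes elastin, ranked 4 of all listed genes by adjusted p and fell to 53.3% of control (log2 -0.91, adjusted p = 6.13e-37 by DESeq2, SE 0.07) in the authors' deposited table. In the same list Thbs2, a thrombospondin, stood at 0.63, the fibulin gene Efemp2 at 0.35 and Lgals1, the galectin-1 gene, at 0.29 on the log2 scale in the authors' deposited table. Enzymes that build or trim glycosaminoglycan chains gave 8 higher and 4 lower of 31, or 25.8% and 12.9%, against 12.6% and 13.7% of all genes tested. The heparan sulfate 6-O-sulfotransferase genes moved apart in the authors' deposited table, with Hs6st2 at -1.16 and Hs6st1 at 0.32 on the log2 scale. Sulf2, which removes 6-O-sulfate, stood at 0.33 and the chondroitin sulfate enzyme gene Csgalnact1 at -0.25 in the authors' deposited table.

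The share listed was 26.7% of other proteoglycan and hyaluronan genes, 21.2% of other collagens, 20.0% of other basement membrane genes, 21.4% of other proteases and inhibitors and 25.0% of collagen processing genes, each near or below the 26.3% of all genes tested. Genes of a list that had no adjusted p would lower its share. Of 30 other proteoglycan and hyaluronan genes, 6 were higher and 2 lower. In the authors' deposited table Ptprz1, a receptor phosphatase that carries chondroitin sulfate, stood at 0.37, the glypican genes Gpc4 at 0.64 and Gpc1 at -0.26, and Hmmr, a hyaluronan-binding protein also known from the mitotic spindle, at -0.36. The 33 other collagen genes gave 5 higher and 2 lower, with log2 fold changes of 0.64 for Col23a1, 0.46 for Col5a3, -0.44 for Col9a3 and -0.51 for Col12a1 in the authors' deposited table. Of 25 other basement membrane genes, 2 were higher and 3 lower, and the fibulin genes Fbln2 and Fbln1, the nephronectin gene Npnt and the type IV collagen gene Col4a6 stood at -0.44, -0.34, -0.34 and 0.35 in the authors' deposited table. Other proteases and inhibitors gave 3 higher and 6 lower of 42, beside 3 higher and 0 lower of the 6 in the set. Among them Cst3, the cysteine protease inhibitor cystatin C, stood at 0.51, and the metalloproteinase genes Adamts5, Adam19 and Adamts9 at -0.92, -0.34 and -0.30 on the log2 scale in the authors' deposited table. Collagen processing genes gave 2 higher and 4 lower of 24, with the collagen galactosyltransferase gene Colgalt2 at -0.45, the collagen export gene Mia3 at -0.21, the collagen chaperone gene Serpinh1 at 0.29 and Pcolce2 at -0.73 in the authors' deposited table.

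**Figure D3:**
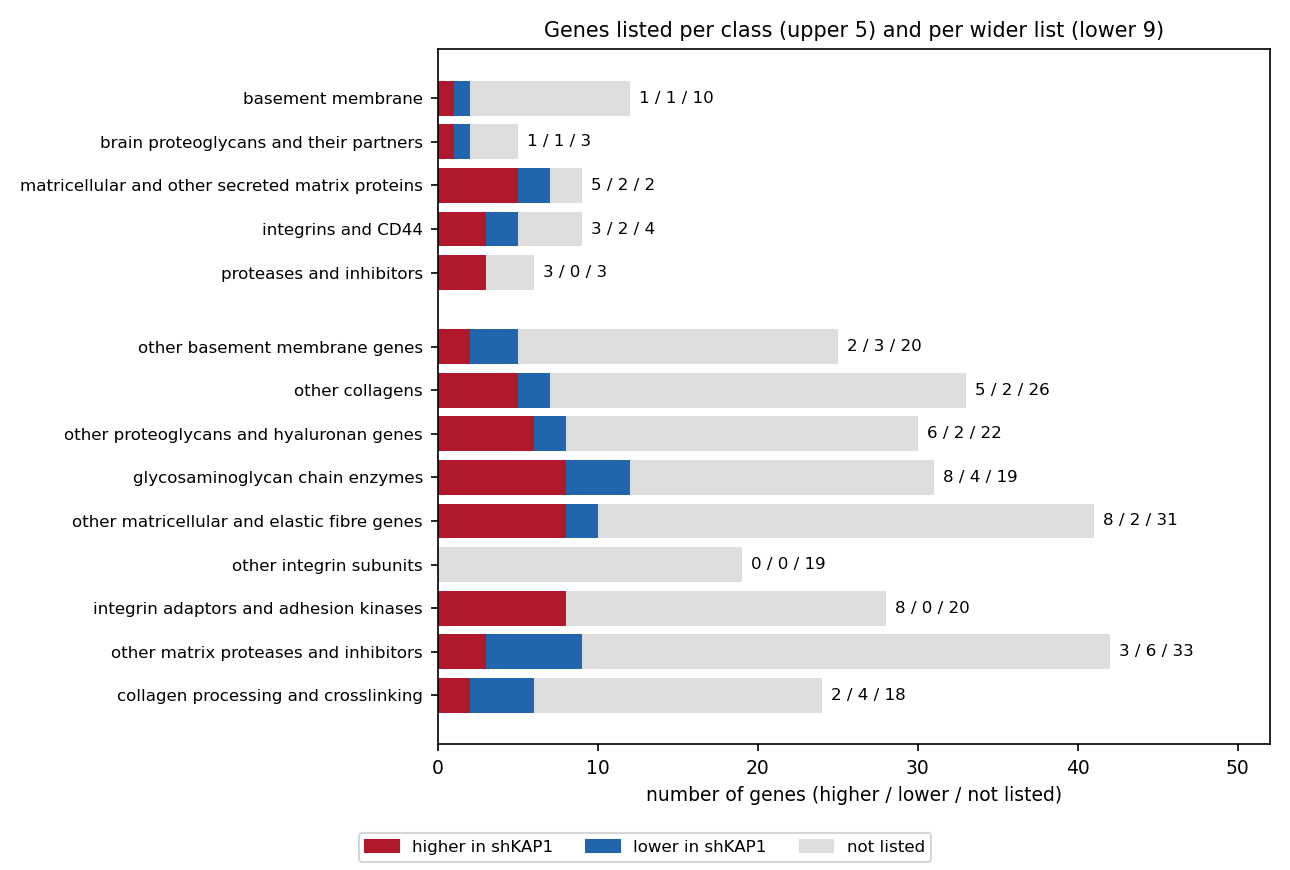
Number of genes (horizontal axis) higher (red), lower (blue) and not listed (grey) in shKAP1 for the 5 classes of the set (upper bars) and 9 further lists (lower bars), with the 3 counts at the end of each bar. Matricellular and other secreted matrix proteins have 5 higher and 2 lower of 9. Integrin adaptors have 8 higher and 0 lower of 28, and none of 19 further integrin subunits was listed. Over all genes tested, 12.6% were higher and 13.7% lower.

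Base composition moved with direction in the set as in the table. The median GC content of coding transcripts was 52.7% in the 13 higher genes (range 43.5% to 57.0%) and 45.5% in the 6 lower genes (range 40.4% to 53.8%), against 53.5% and 48.3% over all higher and all lower listed genes. In the lowest quintile of GC content (31.9% to 44.8%), where 26.5% of listed genes were higher, Itgav was higher and Itgb1, Itgb8 and Spp1 were lower. Both genes of the set in the highest quintile, Lgals3 and Itgb5, were higher, as were 71.3% of the listed genes there. In quintiles where most listed genes were lower, 6 of the 13 higher genes were found, namely Itgav in the lowest, Egfl6 and Cd44 in the next (36.3% higher) and Matn2, Nid1 and Timp3 in the middle quintile (45.1% higher). In quintiles where most were higher, 2 of the 6 lower genes were found, Lama1 and Tnr (59.7% higher). The part of base composition in these directions was not tested.

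**Figure D4:**
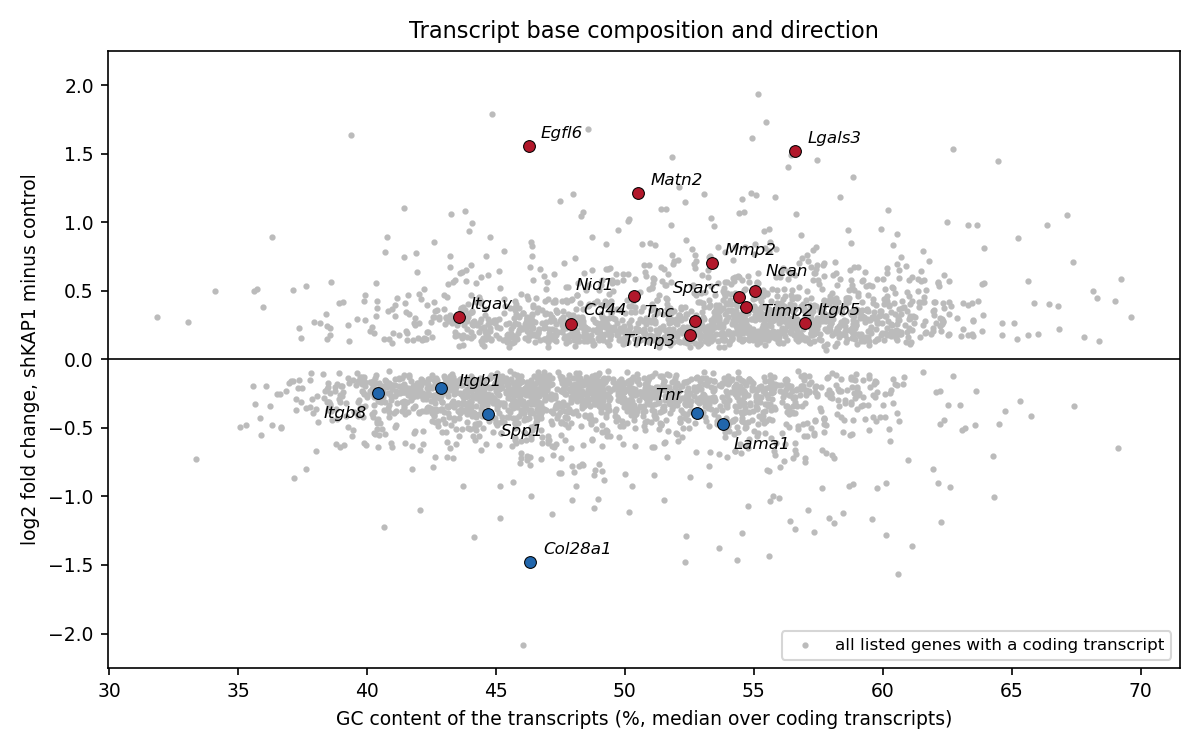
Log2 fold change (shKAP1 minus control, vertical axis) against the GC content of coding transcripts in percent (horizontal axis), grey for all listed genes, red and blue for the higher and lower matrix and integrin genes. The lower genes Itgb8, Itgb1 and Spp1 lie at the left, and Itgav lies among them while being higher.

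Few markers of cell types that secrete much matrix were listed, although most genes tested were not listed either. Of 16 mural cell and fibroblast markers, 2 were listed, or 12.5% against 26.3% of all genes tested, namely Acta2 and Tagln, with log2 fold changes of 1.03 and 0.87 at mean normalized counts of 132.8 and 127.0 in the authors' deposited table, while Col1a1, Col1a2, Col3a1, Dcn, Lum and Pdgfrb were not. None of 10 endothelial and none of 10 microglial and macrophage markers was listed. Levels of unlisted markers are not known from this table, so their summed level per group cannot be given, and the part of such cells in the rise of Mmp2, Sparc or Nid1 was not tested. Of 10 neural stem cell markers, 4 were higher (Vim, Fabp7, Slc1a3 and Nes), or 40.0% against 12.6% of all genes tested. Their mean normalized counts were 96600 to 193157 in the authors' deposited table. In the same table the astrocyte marker Aldh1l1 (116602) and the neuronal marker Map2 (51007) were also abundant. High counts thus do not single out the labelled cell type. Sox2, Pax6, Egfr, Sox9 and Msi1 were among the stem cell markers not listed. Of the other marker lists, 1 of 7 ependymal genes (Foxj1 at 0.59), 1 of 7 astrocyte genes (Aldh1l1 at 0.29) and 1 of 6 oligodendrocyte genes (Mobp at 1.03) were higher on the log2 scale in the authors' deposited table. These shares are 14.3%, 14.3% and 16.7%, near the 12.6% of all genes tested, and each rests on 1 gene. Of 6 neuron and neuroblast genes, 2 were lower, Dcx at -0.62 and Map2 at -0.11, in the authors' deposited table. That is 33.3% and rests on 2 genes, against 13.7% of all genes tested. Bcas1 at -1.03 and Omg at -0.80, oligodendrocyte lineage genes outside these lists that were chosen after their values were seen, had negative log2 fold changes in the authors' deposited table, so listed genes of that lineage moved in both directions. The part of these cells in the level of Tnr was not tested.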

How the data were processed

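The members and gene lists were chosen with earlier results of these data known. Per the labels' protocols, RNA was poly(A)-selected and libraries were strand-specific (dUTP method). Per the submitters' processing notes, Trim Galore 0.4.4, kallisto and DESeq2 were used with build GRCm38. Other versions, the transcript annotation, strand settings, the model and the libraries that entered it are missing from the sources used here, and the control libraries are numbered 1, 2 and 4 but titled 1 to 3. Per the file headers, the authors deposited mean normalized counts (a signal averaged over samples), log2 fold changes with SE, a signed fold and a Wald statistic (a score), and p-values with adjusted p-values, for genes with an adjusted p up to 0.0499 only. The fit on counts per sample that had been foreseen was replaced by these deposited values. Library totals are unknown, so no counting interval was computed.

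Identifiers were matched without version to GENCODE M21 (3388 of 3389, and 3278 with version), which also gave coordinates, transcript length and GC content. The number of genes tested, 12905, is the adjusted p times rank divided by p, found within 0.01 in 85.2% of lines, and the step was tested on simulated data. Intervals of 95% are the log2 fold change with 1.96 SE on each side. Every listed member and up to 4 genes of each wider list, by adjusted p, were named. Exons of Nid1, Tnc, Tnr, Matn2, Itgav and Timp3 overlap a gene on the opposite strand, so reads could be shared if strand was not used. Python 3.11.15, pandas 2.3.3 and matplotlib 3.10.9 were used.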

Additional observations from a re-analysis of the deposited data

How the results depend on the processing

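The table holds no values per sample, so other normalizations, filters on counts and leaving out replicates were not run. No paired analysis was possible because no column carries a sample, even though the groups share the library numbers 1, 2 and 4. Stricter limits leave fewer genes by construction. Of the 13 higher and 6 lower matrix and integrin genes, 11 and 4 remained at an adjusted p under 0.01, and Timp3, Tnc, Itgb8 and Tnr did not. At a Bonferroni limit 8 and 1 remained, with an interval wholly beyond 1.2-fold 7 and 1, and with a 2-fold minimum 3 and 1. The 8 genes beyond 1.2-fold were Sparc, Ncan, Matn2, Lgals3, Egfl6, Nid1, Mmp2 and Col28a1, so no listed integrin gene is among them. A minimum mean normalized count of 100 left 12 and 5, without Egfl6 and Col28a1, and matching identifiers with their version left 13 and 6. The 42 higher and 23 lower of the 273 genes of the wider lists became 13 and 10 at the Bonferroni limit. Of all genes tested, 3.05% and 4.15% passed that limit. With the interval beyond 1.2-fold they became 6 and 7, against 2.41% and 2.48% of all genes tested. With the 2-fold minimum they became 1 and 2, against 0.349% and 0.287%. Levels per kilobase with the median transcript length were added after seeing the data.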
